A study of Jatropha curcas with 4 samples.

Results

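Divergent gene pairs are adjacent genes transcribed away from each other, with the left gene on the minus strand and the right gene on the plus strand, so that their 5′ ends face a common stretch of DNA. In the Jatropha (Jatropha curcas) gene models, 314 such pairs lay within 1 kb and had both genes expressed in roots, of 32024 adjacent pairs of any orientation. They were found by sorting the coding models of each scaffold by start and keeping divergent neighbours with a gap (start of the right model minus end of the left one) of 0 bp or more and under 1000 bp. Both genes needed a level of at least 1 CPM (reads of a gene divided by the library total, times 1000000) in at least 2 libraries. Of 7279 divergent neighbours, 1546 had a gap in this range, and in 312 of these a single gene passed the CPM minimum and in 920 neither did. The 314 pairs hold 628 different genes, since no gene belonged to more than 1 of them.

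Genes that face each other head to head can share a bidirectional promoter, from which the transcription machinery starts in both directions. Such pairs are known in plants, animals and yeast, and in some of them both transcripts rise and fall together, whereas in others they are controlled apart by insulators or by separate core promoters. Convergent pairs, whose 3′ ends face each other, have no such common upstream region and serve here for comparison at the same gap. The models mark coding regions, so that the gap of a divergent pair spans the upstream DNA together with both 5′ untranslated regions.

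Whole roots of 30-day-old plants of a Thai seed source were harvested after 24 h of waterlogging in water that stood 3 cm over the soil (WS), or after 24 h in a container without water (NS). Each treatment has 2 libraries of poly(A) RNA, which the series describes as independent biological replicates made from pools of mRNA, sequenced on an Ion Proton instrument. The plants carried no transgene or mutation that the labels name. The summed counts were 4143491 and 2531520 in WS replicates 1 and 2, against 6110438 and 1204502 in NS replicates 1 and 2. Bulk counts cannot tell fewer cells of a type from less RNA per cell. The gene descriptions used here come from a shortened copy of the annotation table, with 665 models on the first scaffolds by ID, so that most members have none. Root identity was not checked against marker genes.

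Most genes of divergent pairs did not pass the test for a response to waterlogging. Of the 628 genes, 6 rose and 2 fell in WS past an adjusted p of 0.05 (quasi-likelihood test of edgeR over all genes tested), which is 1.27%. Over all 17410 genes tested, 760 genes or 4.37% passed, with 2.45% up-regulated and 1.91% down-regulated. In convergent pairs at the same gap, 70 of 1784 genes passed (3.92%), and in same-strand pairs 39 of 1278 (3.05%), where a gene counts once for each pair it belongs to. The sets by orientation are not separate groups, since a gene can have a close neighbour on each side. Jcr4S00496.60, a called gene of a divergent pair, is also the right gene of a convergent pair and counts in both sets. Without NS replicate 1 or NS replicate 2 none of the 628 genes passed, nor did any gene of the whole table, whereas leaving out WS replicate 1 gave 25 calls and leaving out WS replicate 2 gave 33 (3.98% and 5.25%, against 7.06% and 13.2% of all genes tested). The 8 calls fell in 7 pairs, and in 1 of the 314 pairs both genes passed, both in the same direction. None of the 892 convergent pairs had both genes past the quasi-likelihood test, while 11 did with DESeq2, where 1 divergent pair did. Both genes had an unadjusted p under 0.05 (edgeR) in 6 of the 314 divergent pairs, 4 of them in the same direction. Of the 892 convergent pairs, 42 did, 23 of them in the same direction. Taken singly, 11.3% of the genes of divergent pairs and 21.3% of those of convergent pairs had such a p. The share was 19.9% over all genes tested, and the counts of pairs were not tested against these shares.

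The responses of the paired genes were also small in size. The median size of the log2 fold change, in either direction, was 0.68 in genes of divergent pairs, against 0.87 in genes of convergent pairs, 0.81 in those of same-strand pairs and 0.85 in all genes tested. A fitted change of at least 2-fold was found for 219 of the 628 genes (34.9%), against 43.5% of all genes tested. At an unadjusted p under 0.05, 71 of the 628 genes passed (11.3%), against 19.9% of all genes tested. The libraries of WS and NS did not overlap in 283 genes (45.1%), against 52.5% of all genes tested. The median log2 fold change of the 628 genes was -0.02, with an interquartile range of -0.74 to 0.61. TMM scaling centres these values, and over all genes tested the median was 0.01.

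**Figure D1:**
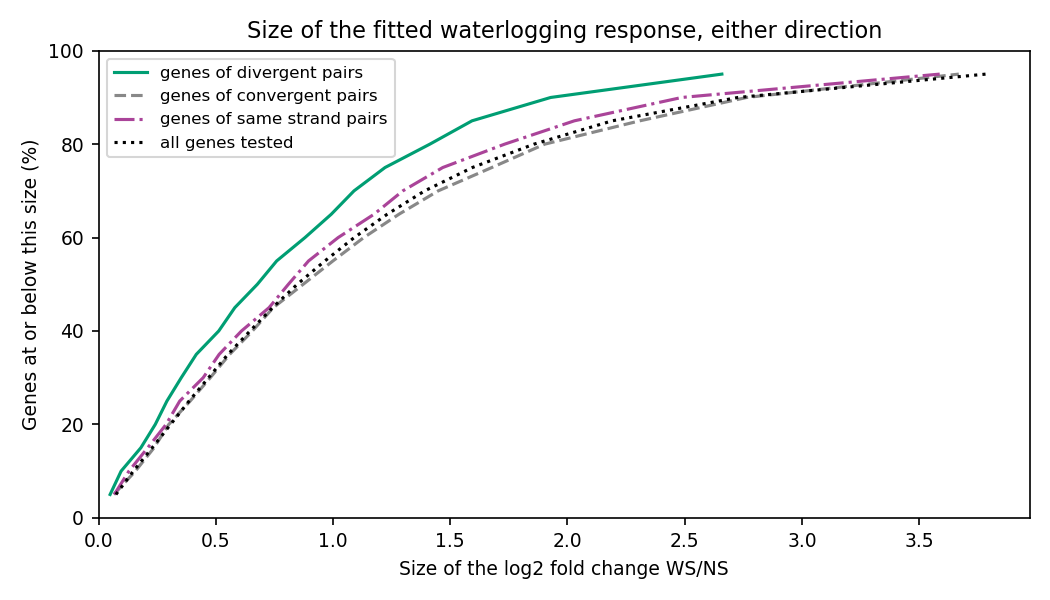
Share of genes (y axis, percent) whose log2 fold change of WS over NS has at most the size on the x axis, drawn in steps of 5 percentiles. The line of the genes of divergent pairs lies to the left of the others, with a median of 0.68 against 0.87 in convergent pairs, 0.81 in same-strand pairs and 0.85 in all genes tested.

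Genes of divergent pairs were read at a slightly lower level than those of convergent pairs, and near that of same-strand pairs. Their median was 14.7 CPM, against 19.4 CPM for genes of convergent pairs, 15.1 CPM for those of same-strand pairs and 17.9 CPM for all genes tested. Among the genes with a mean count of at least 50 reads per library, 8 of 323 in divergent pairs passed (2.48%), against 67 of 1042 in convergent pairs (6.43%) and 703 of 9763 overall (7.20%). In these better-counted genes the median size of the log2 fold change was 0.57 in divergent pairs, against 0.74 in convergent pairs and 0.74 overall. The models of divergent pairs had a median of 6 coding exons, against 5 in convergent pairs, 4 in same-strand pairs and 4 in all genes tested. A single exon was found in 66 of them (10.5%), against 12.1% in convergent pairs, 17.9% in same-strand pairs and 16.2% in all genes tested. The median coding length in divergent pairs was 1057.5 bp, against 1047 bp in all genes tested. The part of level and exon number in the smaller responses was not tested. Of the 628 models, 559 carried no note (89.0%), 30 were marked as short, 23 as partial, 16 as transposable element and 14 as pseudo. Genes of convergent pairs were alike in this respect, with 89.6% free of notes, whereas the share was 79.3% over all genes tested. At least 1 CPM was reached in all 4 libraries by 487 of the 628 genes (77.5%), and 4 genes passed through the WS libraries alone and 11 through the NS libraries alone.

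The question put to the pairs was whether the 2 genes respond together. The fitted changes of both genes had the same sign in 155 of 314 divergent pairs (49.4%, exact 95% interval 43.7% to 55.0%), against 431 of 892 convergent pairs (48.3%, 45.0% to 51.7%). In same-strand pairs, where both genes point the same way, the share was 369 of 639 (57.7%, 53.8% to 61.6%). These intervals cover counting error only, and neighbours in a genome share the same 4 libraries. Pearson's r between the log2 fold changes of the left and the right gene was 0.08 over the 314 divergent pairs (Spearman's rho 0.03), -0.002 over the 892 convergent pairs (rho 0.001) and 0.26 over the 639 same-strand pairs (rho 0.23). The value of 0.08 is within the change that a single library makes, since r was -0.056 without WS replicate 1 and 0.15 without WS replicate 2. It was 0.04 without the 1 pair in which both genes passed.

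Both changes reached 2-fold in the same direction in 22 divergent pairs and in opposite directions in 22. In convergent pairs the counts were 97 and 85, and in same-strand pairs 91 and 35. In 131 divergent pairs a single gene reached 2-fold and in 139 neither did. Counted by libraries that do not overlap between WS and NS, both genes were separate in 69 of the 314 divergent pairs. Of these, 15 were higher in WS for both genes, 24 were lower in WS for both, and 30 went in opposite directions. The 253 convergent pairs of this kind divided into 53, 77 and 123. Taken singly, 45.1% of the genes of divergent pairs and 53.8% of those of convergent pairs were separate, against 52.5% of all genes tested. With shares of this size many pairs have both genes separate in any case, and the counts of pairs were not tested against them.

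**Figure D2:**
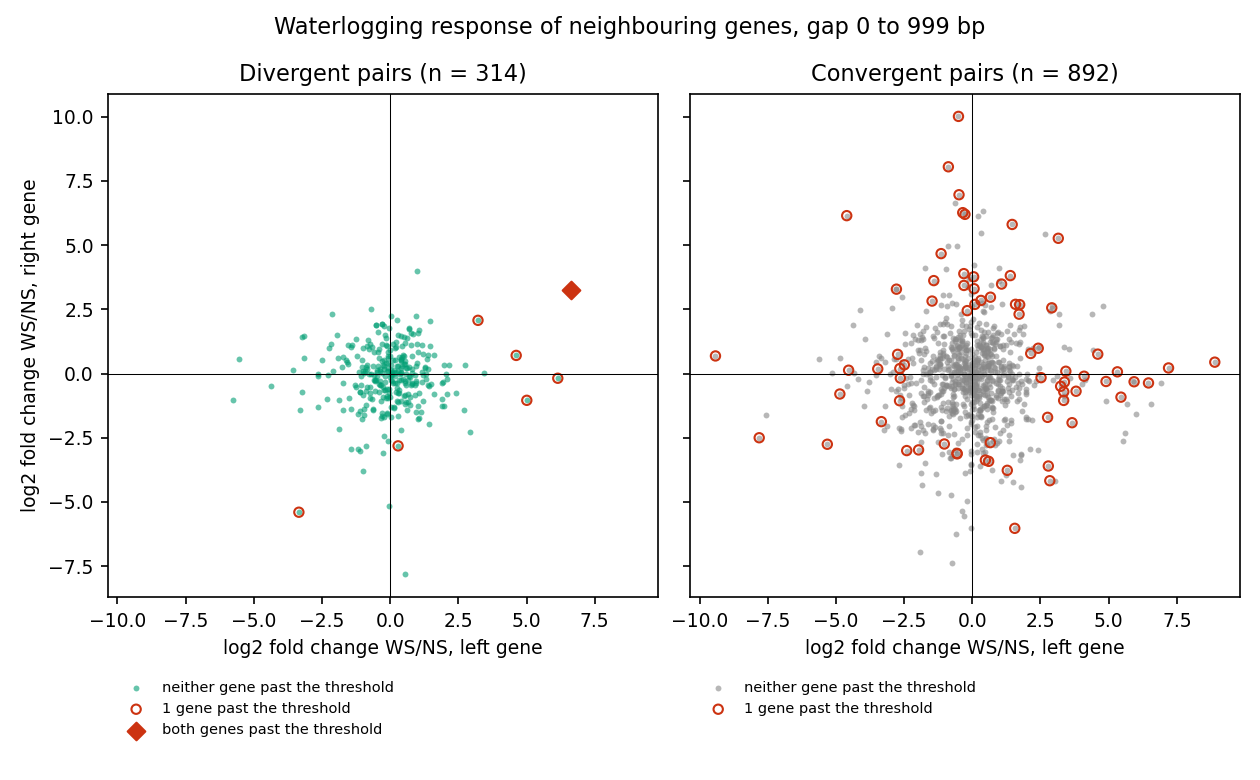
Log2 fold change (WS over NS) of the left gene on the x axis and of the right gene on the y axis, one point per pair, for the 314 divergent pairs on the left and the 892 convergent pairs on the right. Open circles mark pairs with 1 gene past the threshold, and the filled diamond marks the pair with both, Jcr4S00105.160 and Jcr4S00105.170, at 6.62 and 3.25.

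Although the 2 genes of a divergent pair did not share a direction more often than not, the distance between their responses was small. The median difference between the log2 fold changes of the 2 genes was 1.02, against 1.38 in convergent pairs and 1.03 in same-strand pairs. A test of the pair ratio, which asks whether the right gene responded differently from the left one within the same libraries, passed in 1 of 314 divergent pairs (0.318%), against 23 of 892 convergent pairs (2.58%) and 13 of 639 same-strand pairs (2.03%). Over all 1845 pairs tested, 37 or 2.01% passed. At an unadjusted p under 0.05, the ratio passed in 30 divergent pairs (9.55%), against 18.9% of convergent and 13.8% of same-strand pairs. The smaller difference in divergent pairs stands beside the smaller size of their single responses given above, and the part of one in the other was not tested.

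Gaps of the divergent pairs ranged from 102 to 998 bp, with a median of 627.5 bp, against 683 bp in convergent and 781 bp in same-strand pairs. In the closest class, with gaps under 250 bp, the signs matched in 12 of 18 divergent pairs (66.7%, exact 95% interval 41.0% to 86.7%). They matched in 48 of 88 pairs from 250 bp up to 500 bp (54.5%), in 48 of 106 from 500 bp up to 750 bp (45.3%) and in 47 of 102 from 750 bp on (46.1%). The intervals of the 4 classes overlap one another, which does not decide whether the share falls with the gap, and a trend was not tested. Pearson's r was 0.31, -0.01, 0.001 and 0.18 in these classes, in order of rising gap, where the first rests on 18 pairs. The convergent pairs gave matching signs in 6 of 11, 93 of 184, 164 of 351 and 168 of 346 pairs. In same-strand pairs the signs matched in 32 of 44 (72.7%), 49 of 74 (66.2%), 96 of 167 (57.5%) and 192 of 354 pairs (54.2%).

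**Figure D3:**
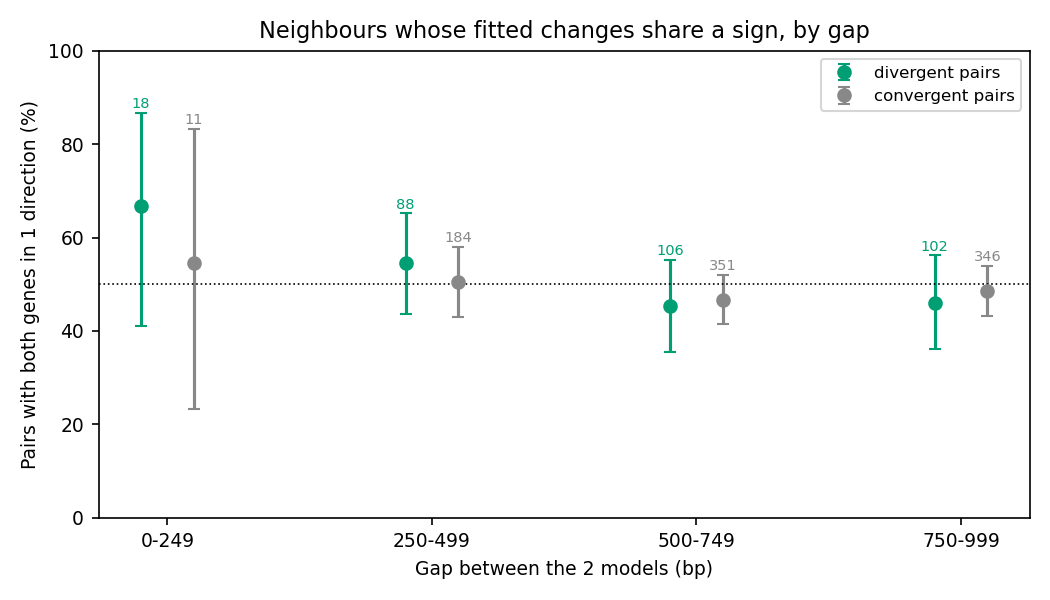
Percentage of pairs in which both genes have the same sign of change (y axis) by class of gap in bp (x axis), for divergent pairs and, beside them, convergent pairs. Bars are exact 95% binomial intervals, the numbers above them count the pairs, and the dotted line marks 50%. The divergent classes run 66.7%, 54.5%, 45.3% and 46.1%, and all 4 intervals reach across the dotted line.

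None of the 36 genes in the 18 closest divergent pairs passed the quasi-likelihood test, and these pairs are therefore described by their values, chosen for their gap after the values were seen. The closest pair, Jcr4S02131.20 and Jcr4S02131.30, has 102 bp between its models on scaffold Jcr4S02131, from 6209 to 6311. Its left gene had 16.8 and 7.16 CPM in WS, against 16.1 and 11.3 CPM in NS, and its right gene was barely expressed, with 5 and 0 reads in WS against 12 and 0 reads in NS. In the next pair, Jcr4S03957.30 and Jcr4S03957.40 with a gap of 166 bp, both genes had lower means in WS. Their log2 fold changes were -3.32 and -1.43 with standard errors of 1.57 and 0.81, and the left gene rested on 1 and 2 reads in WS against 12 and 13 reads in NS. Jcr4S00011.110 and Jcr4S00011.120, with a gap of 244 bp, are described on both sides. The left gene matches an Arabidopsis protein with the WDYHV motif, an amidase that acts on N-terminal glutamine in the N-degron pathway of protein turnover, and the right one matches a protein with a DTW domain. They had log2 fold changes of 0.01 ± 0.75 and -0.15 ± 0.97 (standard errors). Both estimates lie near 0, but errors of this size do not exclude a change in either direction.

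The pair in which both genes were up-regulated is Jcr4S00105.160 and Jcr4S00105.170 on scaffold Jcr4S00105 (genome release 4.5). The left model runs from 82804 to 84091 on the minus strand with 3 coding exons, the right one from 84942 to 88797 on the plus strand with 9 coding exons, and 851 bp lie between them. Jcr4S00105.160 had 318 and 242 CPM in WS (1195 and 576 reads), against 1.53 and 5.29 CPM in NS (10 and 7 reads). Jcr4S00105.170 had 124 and 91.3 CPM in WS (467 and 217 reads), against 7.04 and 16.6 CPM in NS (46 and 22 reads). For both genes every WS library was above every NS library, and in both WS replicate 1 was the higher of the WS libraries and NS replicate 2 the higher of the NS libraries. The log2 fold change was 6.62 for the left gene (standard error 0.72, edgeR adjusted p = 0.00306) and 3.25 for the right gene (standard error 0.61, edgeR adjusted p = 0.0197). The left gene's change was larger by 3.31 on the log2 scale in the test of the pair ratio (standard error 0.87), with an adjusted p of 0.0757 from edgeR, so that the difference between the 2 responses did not pass. Neither model carries a note, and neither is among the models described in the tables used here.

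**Figure D4:**
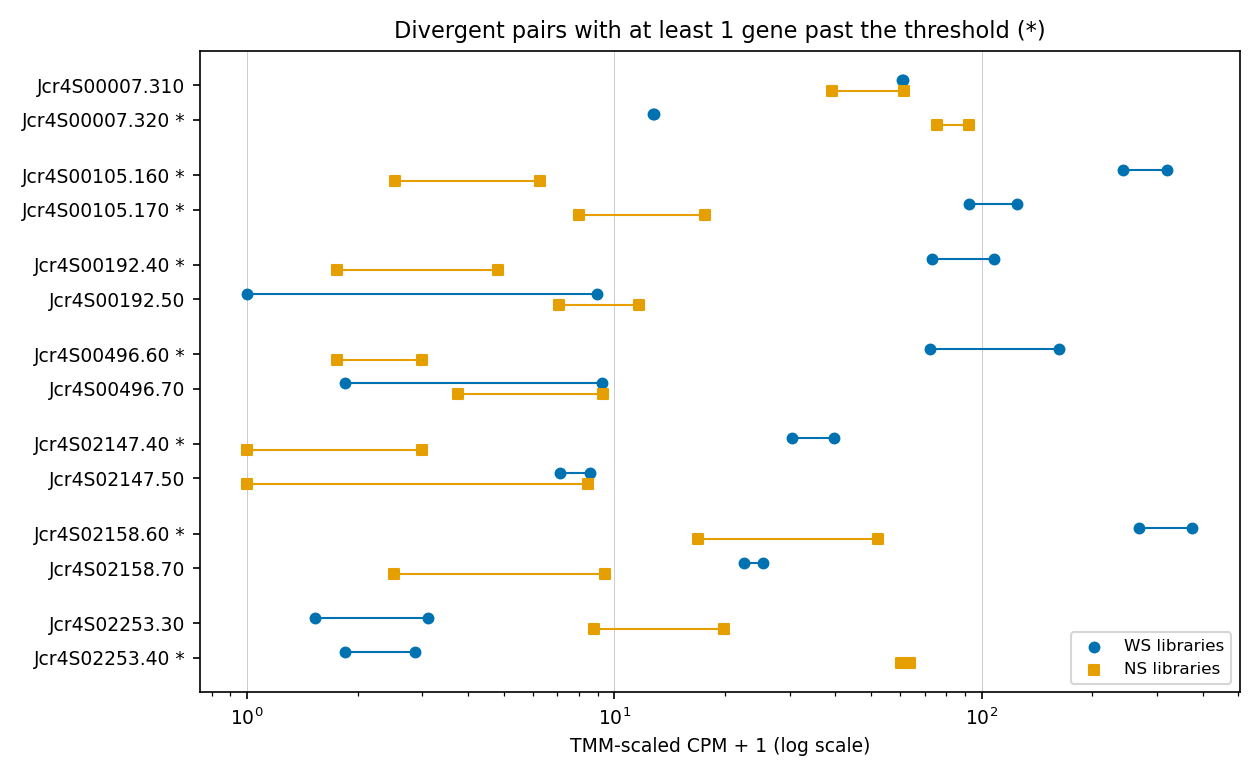
Level of both genes in each library for the 7 divergent pairs with at least 1 gene past the threshold (marked with an asterisk), as TMM-scaled CPM plus 1 on a log axis, with circles for the WS libraries and squares for the NS libraries. In the pair Jcr4S00105.160 and Jcr4S00105.170 both genes lie to the right of their NS values, whereas of Jcr4S00496.60 and Jcr4S00496.70 the first does and the second overlaps.

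The other 6 pairs with a call had 1 gene past the threshold each, and those not covered by the test of the pair ratio were chosen after their values were seen. Jcr4S00496.60 and Jcr4S00496.70, with a gap of 981 bp on scaffold Jcr4S00496, formed the single divergent pair whose ratio changed. The left gene, a model marked as short with 3 coding exons from 24915 to 25482, had 607 and 170 reads in WS against 13 and 1 reads in NS, and its log2 fold change was 6.14 ± 0.75 (standard error, edgeR adjusted p = 0.00396). The right gene, with 1 coding exon from 26463 to 26999, had 31 and 2 reads in WS against 18 and 11 reads in NS, and its WS and NS values overlap. The response of the right gene was lower than that of the left one by a log2 difference of -6.54 (standard error 1.37, adjusted p = 0.0293 from edgeR over all pairs tested). The right gene is the weaker counted of the pair and WS replicate 1 held nearly all of its WS reads.

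In 2 further pairs the left gene was up-regulated and its neighbour was weakly expressed. Jcr4S00192.40, with 11 coding exons, had 72.4 and 107 CPM in WS against 3.82 and 0.756 CPM in NS, and its fitted log2 change was 5.01 ± 0.73 (standard error, edgeR adjusted p = 0.0073). Its neighbour Jcr4S00192.50, 887 bp away, had 30 and 0 reads in WS against 70 and 8 reads in NS. The log2 difference of this pair was -7.04 (standard error 1.82), with an adjusted p of 0.0757 for the pair ratio in edgeR. Jcr4S02147.40, with 9 coding exons and a neighbour at 715 bp, had 38.6 and 29.5 CPM in WS against 1.99 and 0 CPM in NS (log2 change 4.62 ± 0.97, standard error, edgeR adjusted p = 0.0318). The neighbour, Jcr4S02147.50, had 23 and 18 reads in WS against 49 and 0 reads in NS. Thus NS replicate 2, the shallowest library, held no read of either gene of this pair. The log2 difference between the responses of Jcr4S02147.50 and Jcr4S02147.40 was -4.17 (standard error 1.64), with an adjusted p of 0.241 for the pair ratio in edgeR. The fitted change of Jcr4S02147.40 without NS replicate 1 was 9.41, where no NS read is left, so this value is not a measured fold.

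In Jcr4S02158.60 and Jcr4S02158.70, separated by 299 bp, both genes had higher levels in WS and the left one passed. The left gene averaged 321 ± 75.4 CPM in WS and 33.6 ± 25.1 CPM in NS (SD, n = 2 each), and its fitted log2 change was 3.22 ± 0.61 (standard error, edgeR adjusted p = 0.0206). The right gene, a model marked as partial, had 21.6 and 24.4 CPM in WS against 8.41 and 1.51 CPM in NS, with no overlap, but its log2 fold change of 2.07 (standard error 0.87) did not pass (adjusted p = 0.225, edgeR). This is the single called pair with a gap under 500 bp.

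The 2 down-regulated genes were right-hand members of their pairs. Jcr4S02253.40, an intronless model, had 1.86 and 0.842 CPM in WS against 59.4 and 62.8 CPM in NS, and its fitted log2 change was -5.40 ± 0.72 (standard error, edgeR adjusted p = 0.00571). Its neighbour Jcr4S02253.30, at a gap of 923 bp, was also lower in each WS library, with 2 and 5 reads in WS against 51 and 25 reads in NS. The neighbour's log2 fold change of -3.35 (standard error 1.19) did not pass (adjusted p = 0.155, edgeR). The difference between the 2 responses was -2.07 (standard error 1.49), with an adjusted p of 0.573 for the pair ratio in edgeR.

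Among the 8 called genes, Jcr4S00007.320 alone is in the 665 described rows used here, which do not reach the scaffolds of the other 7. Its best Arabidopsis match is MSRB2, a methionine sulfoxide reductase, an enzyme that repairs oxidized methionine in proteins. It had 11.7 and 11.8 CPM in WS against 74.6 and 91.5 CPM in NS, and its fitted log2 change was -2.82 ± 0.53 (standard error, edgeR adjusted p = 0.0197). The neighbour Jcr4S00007.310, with 19 coding exons and a gap of 671 bp, did not follow it, with 59.6 and 60.2 CPM in WS against 38.2 and 60.5 CPM in NS. The ratio of this pair had a log2 difference of -3.13 (standard error 0.89) and did not pass (adjusted p = 0.0955, edgeR).

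Of the 628 genes, 45 are in the described rows used here, and 22 pairs are described on both sides. Apart from Jcr4S00007.320, none of the 45 passed the quasi-likelihood test. An unadjusted p under 0.05 was found for 5 of the 45, Jcr4S00007.320 among them, where the share was 19.9% over all genes tested. In all 665 described models, 22 passed. The signs of change matched in 9 of the 22 pairs. By Mercator bin, the largest groups were 18 genes that are not assigned, 11 of protein synthesis, targeting, modification and turnover, and 4 of RNA processing and regulation. In the protein group 1 gene fell and none rose, with a median log2 fold change of 0.20 and a range of -2.82 to 4.01. Of the 4 RNA genes none passed, with values of -1.78 to 0.41, and of the 18 genes that are not assigned none passed, with values of -1.26 to 1.76. The median over the 45 described genes was 0.02, against 0.01 over all genes tested. None of the 129 AP2/ERF transcription factor genes in the rows at hand, which are not the full list, and none of 10 genes listed with PCR primers is a member of these pairs.

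**Figure D5:**
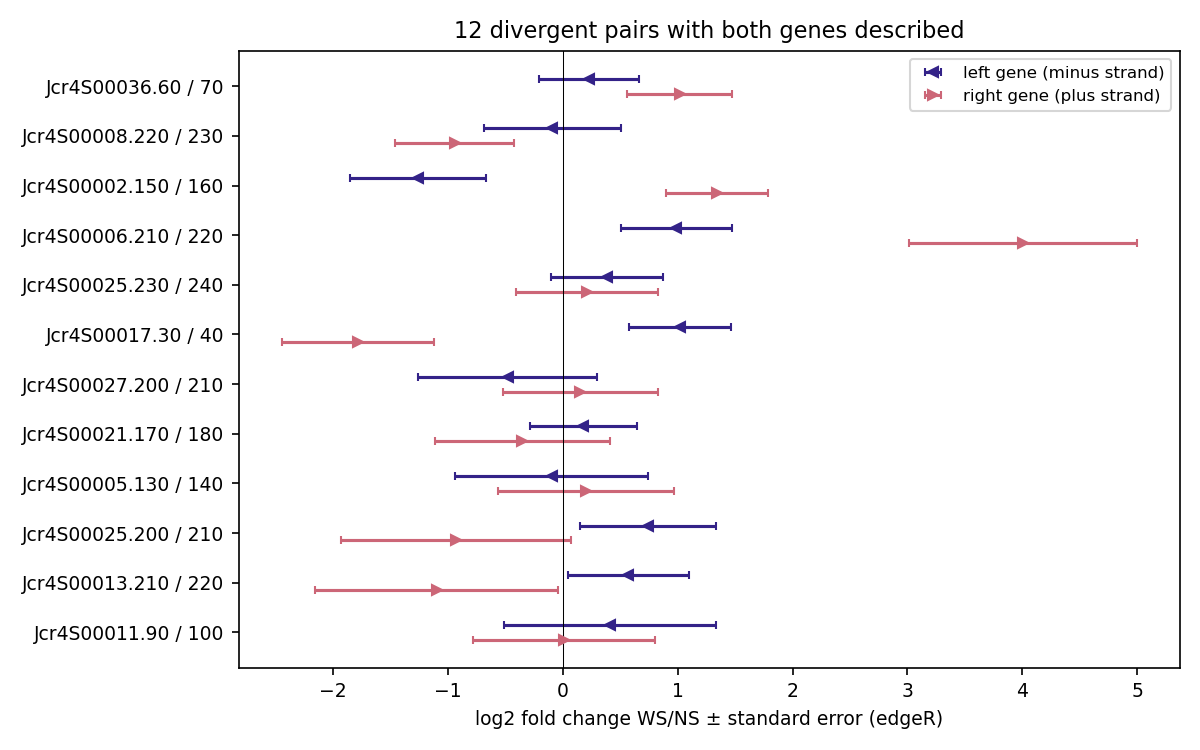
Log2 fold change (WS over NS, x axis) with its standard error for both genes of the 12 described divergent pairs with the best-expressed lower gene, ordered from top to bottom by the level of that gene. Left-pointing triangles are the minus-strand genes and right-pointing triangles the plus-strand genes. None passed, and Jcr4S00006.220 at 4.01 lies farthest from 0.

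The best-expressed of these pairs holds a ribosomal protein gene. Jcr4S00036.70 matches ribosomal protein L6 of the large subunit from common ice plant and Arabidopsis, and its neighbour at 883 bp, Jcr4S00036.60, matches an Arabidopsis protein with a BSD domain. The ribosomal protein gene had 111 and 167 CPM in WS against 68.7 and 68.1 CPM in NS, and the neighbour had 131 and 185 CPM in WS against 128 and 141 CPM in NS. For the ribosomal gene the libraries do not overlap, but its log2 fold change of 1.02 (standard error 0.46) did not pass (adjusted p = 0.255, edgeR), and for the neighbour they do overlap.

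Of the next pairs, 2 hold a ribosomal protein gene. Jcr4S00008.230, matching a ribosomal S21 family protein, had 28.2 and 25.7 CPM in WS against 46.3 and 57.5 CPM in NS (adjusted p = 0.359, edgeR). Across 355 bp, Jcr4S00008.220, matching an O-fucosyltransferase family protein, a kind of enzyme that adds fucose to proteins, had 50.3 and 45.9 CPM in WS against 76.0 and 25.0 CPM in NS. Jcr4S00005.140, matching a ribosomal S16 family protein, had 33.0 and 53.5 CPM in WS against 63.3 and 9.83 CPM in NS. It lies 556 bp from Jcr4S00005.130, a model marked as partial and as pseudo. The match of Jcr4S00005.130 is EMB1789, a zinc ion binding protein needed for embryo development in Arabidopsis. The level of this last gene was 14.1 and 7.58 CPM in WS against 7.95 and 15.9 CPM in NS. In these pairs, apart from Jcr4S00008.230, the WS and NS libraries overlapped.

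The 2 described pairs with the smallest p-values for their ratio had genes with opposite signs. Jcr4S00002.150 matches BUBR1, a protein of the spindle checkpoint, which delays chromosome separation until all chromosomes are attached. It averaged 19.6 ± 9.72 CPM in WS and 46.7 ± 0.805 CPM in NS (SD, n = 2 each). Its neighbour at 663 bp, Jcr4S00002.160, matches CP12-3, of a family known for binding enzymes of the Calvin cycle, and averaged 166 ± 3.45 CPM in WS and 66.0 ± 12.6 CPM in NS (SD, n = 2 each). The log2 difference between these responses was 2.69 (standard error 0.86), and the adjusted p for the ratio was 0.137 (edgeR).

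Jcr4S00017.30 and Jcr4S00017.40, with a gap of 936 bp, went the other way round. The left gene matches a nucleolar GTP-binding protein of ribosome assembly and had 196 and 170 CPM in WS against 73.3 and 107 CPM in NS. The right gene matches a tRNA methyltransferase that modifies thiouridine and had 10.6 and 7.58 CPM in WS against 25.9 and 37.8 CPM in NS. In neither gene did the libraries of WS and NS overlap, and the log2 difference of -2.83 (standard error 0.83) had an adjusted p of 0.112 in the test of the ratio (edgeR).

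The largest fitted change among the described genes was that of Jcr4S00006.220, matching an Arabidopsis protein kinase, whose WS reads came mostly from WS replicate 1. It had 383 and 35 reads in WS against 32 and 2 reads in NS, or 102 and 14.7 CPM against 4.89 and 1.51 CPM, and its log2 fold change was 4.01 ± 0.99 (standard error, edgeR adjusted p = 0.0568). Its neighbour at 656 bp, Jcr4S00006.210, matches VPS35B, a subunit of the retromer that returns sorting receptors from endosomes. That gene had 75.8 and 82.1 CPM in WS against 33.8 and 46.1 CPM in NS (adjusted p = 0.296, edgeR).

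In the remaining 6 of the 12 pairs, neither gene had an unadjusted p under 0.05, and the log2 fold changes ranged from -1.10 to 0.74. Jcr4S00025.230 and Jcr4S00025.240 match a protein kinase and SRP19, a subunit of the signal recognition particle that guides new proteins to the endoplasmic reticulum, and had log2 fold changes of 0.39 and 0.21. Jcr4S00021.170 and Jcr4S00021.180 match the Golgi protease S1P and RASPBERRY 3, a protein of embryo development, with 0.18 and -0.35. Jcr4S00011.90 and Jcr4S00011.100 match an exoribonuclease and a thiouridylase subunit, with 0.41 and 0.01. Of the remaining 6 pairs, these 3 had the smallest shifts.

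In the other 3 pairs the fitted changes had opposite signs, as they did in Jcr4S00021.170 and Jcr4S00021.180, and none passed. Jcr4S00027.200 and Jcr4S00027.210 match the germin-like protein GLP10 and a membrane-bound O-acyltransferase, with log2 fold changes of -0.48 and 0.15. The model Jcr4S00027.210 is marked as partial. Jcr4S00013.210 and Jcr4S00013.220 match a tetratricopeptide repeat protein and YCF37, a homologue of a cyanobacterial protein, with 0.57 and -1.10. Jcr4S00025.200, without a match, and Jcr4S00025.210, which matches a pleiotropic drug resistance (ABC) transporter of tobacco, had 0.74 and -0.93. Standard errors of these 6 values ranged from 0.53 to 1.06.

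The levels of the 2 genes of a divergent pair were as unlike as those of convergent neighbours. On the scale of mean CPM per kb of coding length, the higher gene of a pair had a median of 3.62 times the level of the lower one, against 3.69 times in convergent and 2.75 times in same-strand pairs. The levels were within 2-fold of each other in 84 divergent pairs (26.8%), against 245 convergent pairs (27.5%) and 240 same-strand pairs (37.6%). They differed more than 10-fold in 73 divergent pairs (23.2%). Across pairs, Pearson's r between the log2 levels per kb was 0.03 for divergent (n = 314), -0.04 for convergent (n = 892) and 0.16 for same-strand pairs (n = 639), where all pairs share the same libraries.

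Differences between libraries of the same treatment were compared in the same way. Between WS replicates 1 and 2, the log2(CPM + 1) differences of the left and right genes had an r of 0.11 over the divergent pairs, and between NS replicates 1 and 2 of 0.01. The difference of the WS mean minus the NS mean, on this scale, had an r of 0.11. For single library pairs it was 0.18 between WS replicate 1 and NS replicate 1 and 0.004 between WS replicate 2 and NS replicate 2. In divergent pairs r thus varied widely with the libraries compared. The same WS and NS libraries gave -0.007 and 0.03 in convergent pairs, and 0.22 and 0.19 in same-strand pairs. Between the WS replicates r was 0.05 in convergent and 0.16 in same-strand pairs, and between the NS replicates -0.006 and 0.04.

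Some of the described pairs also sit side by side in Arabidopsis by locus number. Of 21 divergent pairs with an Arabidopsis match on both sides, 4 matched loci whose numbers differ by at most 10, the usual step between neighbouring loci. The share was 10 of 52 in convergent and 2 of 27 in same-strand pairs. The divergent ones are Jcr4S00005.130 and Jcr4S00005.140, Jcr4S00008.220 and Jcr4S00008.230, Jcr4S00011.110 and Jcr4S00011.120, and Jcr4S00025.70 and Jcr4S00025.80. The last pair, at a gap of 535 bp, matches CRSH, a calcium-activated enzyme that makes guanosine tetraphosphate, and a plastid ribosomal protein L3. CRSH had 5.85 and 9.68 CPM in WS against 11.2 and 0.756 CPM in NS, and the ribosomal gene had 37.8 and 19.4 CPM in WS against 50.0 and 71.8 CPM in NS, so that neither passed. None of the 8 genes in these 4 pairs passed the quasi-likelihood test (adjusted p from 0.326 to 0.997, none at an unadjusted p under 0.05, edgeR).

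At the edge of the rule, the 2 widest pairs had gaps of 998 bp (Jcr4S05030.20 and Jcr4S05030.30) and 997 bp (Jcr4S03655.40 and Jcr4S03655.50). Their log2 fold changes were 3.43 and 0.04 in the first pair and -0.81 and 1.30 in the second. Just outside, Jcr4S01536.20 and Jcr4S01536.30 had a gap of 1004 bp with changes of 1.14 and 1.02, and Jcr4S00004.270 and Jcr4S00004.280 one of 1006 bp with changes of 0.35 and -0.58.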

How the data were processed

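The authors trimmed Ion Proton reads, mapped them with TMAP to release 4.5 of the Jatropha genome and assigned them to gene models with HTSeq. They deposited raw read counts and the start and end coordinates of the models. HTSeq and edgeR stand without a version in the submitters' processing notes. The strand setting and the handling of multiply mapped reads are not given in the sources used here. Near-identical copies could therefore share reads, and reads of untranslated regions that reach a neighbour on the other strand could be assigned to either gene. This can occur in divergent and in convergent pairs, but 5′ ends face each other in the first and 3′ ends in the second. The degree can therefore differ between them, and the part of such reads in their comparison was not tested. The authors' comparison table (fold changes and p-values) was not used.

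The counts were fitted with edgeR 4.0.16 in R 4.3.3 (TMM scaling, glmQLFit and glmQLFTest, two-sided, Benjamini-Hochberg adjusted p under 0.05) on genes that reached 1 CPM in 2 or more libraries, and members were read from this fit. Standard errors were derived from the F statistic. CPM values given for genes are relative to TMM-scaled library sizes. The pair ratio was fitted with the same tool on 8 columns per pair (both genes in 4 libraries), with library, gene, and gene by treatment as terms, adjusted over all 1845 adjacent pairs of any orientation less than 1000 bp apart. Both fits were run on simulated counts, with known changes placed in better-counted genes only. These were at least 2-fold in the gene fit and at least 4-fold in the pair fit. Recovery of smaller changes, or of changes in weakly counted genes, was not examined. Summaries used Python 3.11.15, pandas 2.3.3, numpy 2.4.6 and scipy 1.17.1, and figures matplotlib 3.10.9.

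Library totals lay between 1204502 and 6110438 counts, so that 1 CPM was between 1.20 and 6.11 reads. With 2 libraries against 2, a permutation test cannot give a two-sided p below 0.333, and p-values come from models fitted across all genes or pairs. The pairs, the rule for named genes and the gene lists were chosen with earlier results of these data known. Named pairs are those with both genes past the threshold, those past the ratio test, the 12 whose lower gene has the highest mean CPM among the 22 pairs described on both sides in the 665 rows of the study's annotation table at hand (the first by ID), and those at the edges of the gap. No gene ID of the pairs (0 of 628) was found in the RefSeq table, and descriptions are best matches to other species, and no sequence of the gaps was used here. Alternatives were RLE, upper quartile and total library size scaling, other count filters, the likelihood ratio test, DESeq2 1.42.0, an adjusted p under 0.1, fits with a replicate block or with 1 library removed, narrower and wider gaps, and models without notes.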

Additional observations from a re-analysis of the deposited data

How the results depend on the processing

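With RLE, upper quartile or total library size scaling, and for genes with 10 or more reads on average, the number of divergent-pair genes past the threshold was 8 to 10, 1 pair had both genes past it and 1 pair ratio passed. The count of genes was 38 with no filter on low counts, 35 with the likelihood ratio test, 32 with DESeq2, 28 at an adjusted p under 0.1, and 1 or 34 with gaps under 500 or 2000 bp. The share of divergent-pair genes stayed under that of all genes tested in each: 4.28% against 7.91% with no filter, 5.57% against 11.5% with the likelihood ratio test and 5.10% against 9.53% with DESeq2. Both genes passed in 2 pairs with the likelihood ratio test, and in 0 or 3 pairs with gaps under 500 or 2000 bp. The pair ratio passed in 15 pairs with the likelihood ratio test, 5 at an adjusted p under 0.1, 3 with no filter, 0 or 16 with gaps under 500 or 2000 bp, and 0 among models without a note, where the passing pair Jcr4S00496.60 and Jcr4S00496.70 is left out because its left model is marked as short.

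With 1 library left out, the gene count ranged from 0 to 33, pairs with both genes past the threshold from 0 to 2, passing ratios from 0 to 3, and r between the log2 fold changes from -0.056 to 0.155. It was 0 for all 3 counts without NS replicate 1 or NS replicate 2 (edgeR), where no gene of the whole table passed. Without NS replicate 1 and without NS replicate 2, r over the divergent pairs was 0.053 and 0.099. The 8 called genes had adjusted p-values of 0.0618 to 0.160 and of 0.0666 to 0.195 in these fits. Without WS replicate 1 or WS replicate 2, 25 or 33 genes passed (3.98% against 7.06%, and 5.25% against 13.2%, of all genes tested). In the fits with both genes at a mean count of at least 50, r was 0.20 over 76 divergent pairs, and -0.02 without Jcr4S00105.160 and Jcr4S00105.170 (chosen after seeing the data).

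A replicate block raised the gene count to 31 (4.94%, against 9.67% of all genes tested), with 1 pair with both genes past the threshold and r of 0.08. Deviations from the group means of same-numbered libraries had an r of 0.09 over 17410 genes, and with 2 numbers the libraries are not shown to be paired. The cause of these changes was not tested. A level of 1 CPM was 1.20 reads in NS replicate 2, so that values of weakly expressed genes there rest on few reads. Of the 760 genes past the threshold, 703 had a mean count of at least 50.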
